A study of Mus musculus with 6 samples.

Results

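The respiratory chain of the mitochondrial inner membrane is described here at the level of its messenger RNAs in splenic endothelial cells of 6 mice. Members are the gene symbols of the deposited count table that name subunits encoded in mitochondrial DNA (mt-Nd, mt-Co, mt-Atp and mt-Cytb genes) or nuclear subunits of complexes I to V (Nduf, Sdh, Uqcr, Cox4 to Cox8 and Atp5 genes), with an estimated count of 10 or more in at least 3 libraries. Of 102 symbols with such names, 101 met the count minimum, among 23203 named genes in the table. The exception was the pseudogene Atp5l2-ps, with 1.17 to 11.2 estimated counts per library. The members comprise 13 mitochondrially encoded genes, which are all the protein-coding genes of that genome, and 88 nuclear symbols. Of the nuclear symbols, 5 are annotated or named as pseudogenes (Ndufb4c, Cox7c-ps1, Atp5pb-ps, Ndufs5-ps and Ndufa12-ps), which leaves 96 genes for subunits.

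All mice lacked Apoe, the gene for apolipoprotein E, and were fed a high cholesterol diet for 8 weeks during treatment with an ASO (antisense oligonucleotide), a synthetic strand designed to bind one RNA and reduce it. In 3 mice the ASO was a control (1601, 1602 and 1608), and in 3 mice it targeted Mlkl, the pseudokinase that opens the plasma membrane in necroptosis (1603, 1604 and 1607). Each mouse gave 1 library. The sources used here do not give age, sex, the ASO sequences or how the endothelial cells were isolated.

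The respiratory chain is built from 2 genomes. Mitochondrial DNA is transcribed into long precursors that are cut at the transfer RNAs into messengers for core subunits of complexes I, III, IV and V, whereas all of complex II and the remaining subunits are transcribed from nuclear genes and imported as proteins. Complex I oxidises NADH, complex II oxidises succinate, complex III passes electrons to cytochrome c, complex IV reduces oxygen, and complex V, the ATP synthase, uses the resulting proton gradient. Resting endothelial cells cover much of their ATP demand by glycolysis and use mitochondria also for biosynthesis and signalling.

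Library totals were between 59988013 and 87775554 estimated counts. Mlkl itself measured 30.1, 31.5 and 38.7 CPM (counts relative to the TMM-scaled library total) in control mice 1601, 1602 and 1608, and 7.52, 5.80 and 3.73 CPM in MLKL ASO mice 1603, 1604 and 1607, so that the target was lower in each treated mouse. The log2 fold change of Mlkl was -2.56 (standard error 0.27), and edgeR gave it an adjusted p of 0.0666, above the threshold of 0.05 used here. All 10 endothelial markers examined were measured, with a summed level of 2368 to 4415 CPM in control mice and 2929 to 3180 CPM in MLKL ASO mice. RNA of blood cells was also present, and globin genes took 4.77% to 11.7% of the counts in the control libraries and 7.17% to 15.1% of those in the MLKL ASO libraries. Because whole populations were sequenced, fewer cells of a type and less RNA per cell cannot be told apart.

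Some reads of mitochondrial genes cannot be assigned by sequence, which bears on the values of the genes concerned. In the GENCODE M21 annotation, 6 members have a copy in the nuclear genome, on chromosome 1, that matches them at 99% or more over at least 200 bases and has its own row in the count table. The copy Gm10925 matches mt-Atp6 at 678 of 678 aligned bases, Gm28437 matches mt-Co3 at 783 of 783, Gm28661 matches mt-Co2 at 681 of 681, and Gm10222 matches mt-Nd4l at 294 of 294. Gm29216 covers the end of mt-Co1 and differs from it at 1 of 483 aligned bases, and Gm28438 differs from mt-Nd3 at 1 of 345. The sequences below, 5′ to 3′ from the GENCODE M21 transcripts, show how little separates gene and copy. Positions are counted from 1 at the 5′ end of the transcript, and the capital marks the only base that differs, A1066T in mt-Co1 and T3C in mt-Nd3.
mt-Co1, bases 1063 to 1086: ggaAttgttttatccaactcatcc
Gm29216, bases 10 to 33: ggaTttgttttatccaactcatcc
mt-Nd3, bases 1 to 23: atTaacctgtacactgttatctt
Gm28438, bases 1 to 23: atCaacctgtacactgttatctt

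Gm10925 differs from mt-Atp6 in its annotated end alone. The final bases of both are shown because this pair held the most counts, with the bases that only mt-Atp6 has in capitals.
mt-Atp6, bases 642 to 681: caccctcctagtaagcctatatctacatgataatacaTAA
Gm10925, bases 642 to 678: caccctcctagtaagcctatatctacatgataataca

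Neighbouring mitochondrial genes can also share bases. The reading frames of mt-Atp8 and mt-Atp6 lie on 1 messenger and overlap by 43 bases, given in capitals, and those of mt-Nd4l and mt-Nd4 overlap by 7.
mt-Atp8, bases 150 to 204: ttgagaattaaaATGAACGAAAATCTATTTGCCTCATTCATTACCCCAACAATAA
mt-Atp6, bases 1 to 55: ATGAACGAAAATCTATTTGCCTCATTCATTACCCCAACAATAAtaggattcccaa

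Mitochondrially encoded messengers took a larger share of the counts in 2 of the 3 control mice than in any MLKL ASO mouse. The share was 2.34% in control mouse 1601, 2.72% in mouse 1602 and 1.65% in mouse 1608. In MLKL ASO mice 1603, 1604 and 1607 it was 1.84%, 1.54% and 1.86%. Control mouse 1608 lay inside the range of the MLKL ASO mice, so that the groups overlapped, with means of 2.24% ± 0.539 (SD, n = 3) in control and 1.75% ± 0.177 (SD, n = 3) in MLKL ASO mice. The difference of -0.489 percentage points was smaller than the spread among control mice, and it was -0.248 without mouse 1602 and -0.78 without mouse 1608. Nuclear members took 1.32%, 1.54% and 1.35% of the counts in control mice 1601, 1602 and 1608, and 1.58%, 1.31% and 1.54% in mice 1603, 1604 and 1607. These shares overlapped too, with means of 1.41% ± 0.121 (SD, n = 3) and 1.48% ± 0.150 (SD, n = 3).

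Set against each other within a library, a comparison that needs no scaling between libraries, the 2 genomes gave a narrow value in the MLKL ASO group. For each count on nuclear members there were 1.16, 1.18 and 1.20 counts on mitochondrially encoded members in mice 1603, 1604 and 1607. Control mouse 1608 had 1.22, just above them, and control mice 1601 and 1602 had 1.77 and 1.76. The groups therefore did not overlap, but mouse 1608 stood at 0.29 on the log2 scale, against 0.27 in mouse 1607. With the counts of the 6 nuclear copies added to the mitochondrial genes, mouse 1608 (0.56) was within the range of the MLKL ASO mice (0.49 to 0.57). The mean log2 ratio was 0.64 ± 0.31 (SD, n = 3) in control and 0.24 ± 0.03 (SD, n = 3) in MLKL ASO mice, a difference of -0.40 that was -0.58 without mouse 1608 and -0.31 without mouse 1601 or without mouse 1602. No test was made of this ratio or of the shares, since they are sums over members chosen with earlier results known.

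**Figure D1:**
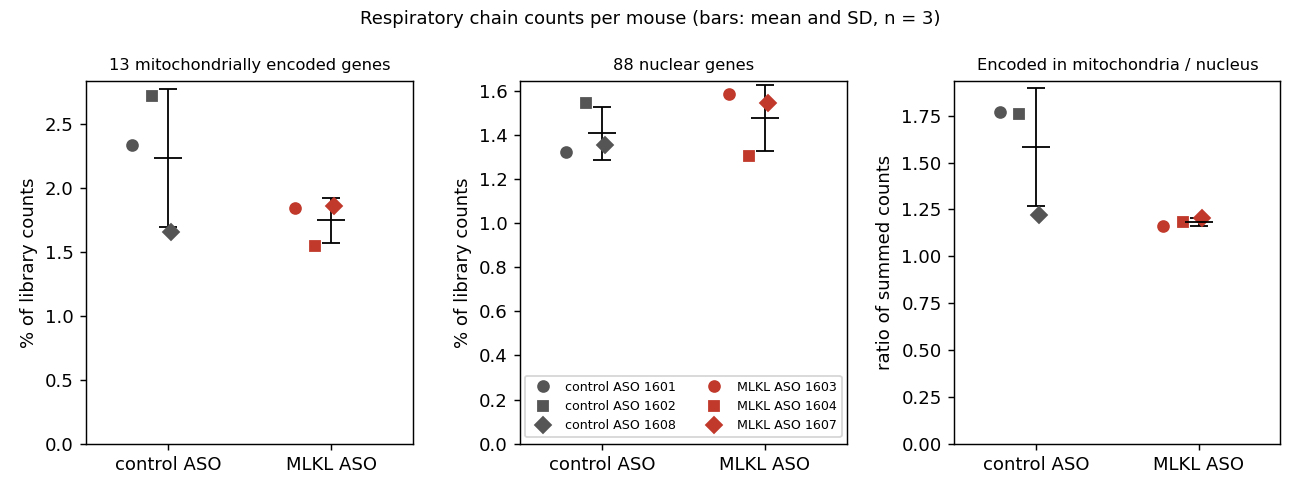
Share of library counts (%) on the 13 mitochondrially encoded and the 88 nuclear members, and the ratio of the summed counts, with 1 point per mouse and bars for mean and SD. Control mice 1601 and 1602 stand at ratios of 1.77 and 1.76, and control mouse 1608, at 1.22, lies beside the MLKL ASO mice at 1.16 to 1.20.

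No member passed the threshold in edgeR. Of 101 members 0 were higher and 0 lower at an adjusted p under 0.05, where 0.00507% of the 19741 genes tested were higher and 0.00507% lower. With an unadjusted p under 0.05 stood 2 members that were higher (Sdhd and Cox6b2) and 2 that were lower (mt-Nd4 and mt-Co3), against 4.86% and 7.13% of all genes. DESeq2, which called 2.61% of all genes, called 0 members, and limma-voom with sample weights also called 0. In the authors' deposited table, all 101 members stood on 1 row each and 0 had an adjusted p under 0.05, the smallest being 0.176 for mt-Nd3. Groups did not overlap for 8 members, where 18.7% of all genes had this in either direction. Of these, 7 were higher in MLKL ASO mice, against 8.73% of all genes, and 1 was lower. These shares are under the background and are no result about the members.

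All 13 mitochondrially encoded members had a log2 fold change below 0 (MLKL ASO minus control ASO), with a median of -0.38 and a range from -0.72 to -0.03, while 10268 of the 19741 genes lay below 0 with a median of -0.02. These genes are cut from shared precursors and are not independent of each other. In each of the 13, control mouse 1602 lay above all MLKL ASO mice, and mouse 1601 did so in 12, but mouse 1608 did so in 1. Leaving out mouse 1602 gave a median of -0.28 and leaving out mouse 1608 one of -0.56, and 12 of 13 lay below 0 without mouse 1601, 1602 or 1604 or with unscaled library totals. With the nuclear copies added it was -0.37, again with 13 of 13 below 0. In that fit 3 of the 13 were lower at an unadjusted p under 0.05 (edgeR, smallest adjusted p = 0.369). Over all genes, 7.13% were lower at that p in the fit without copies added.

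**Figure D2:**
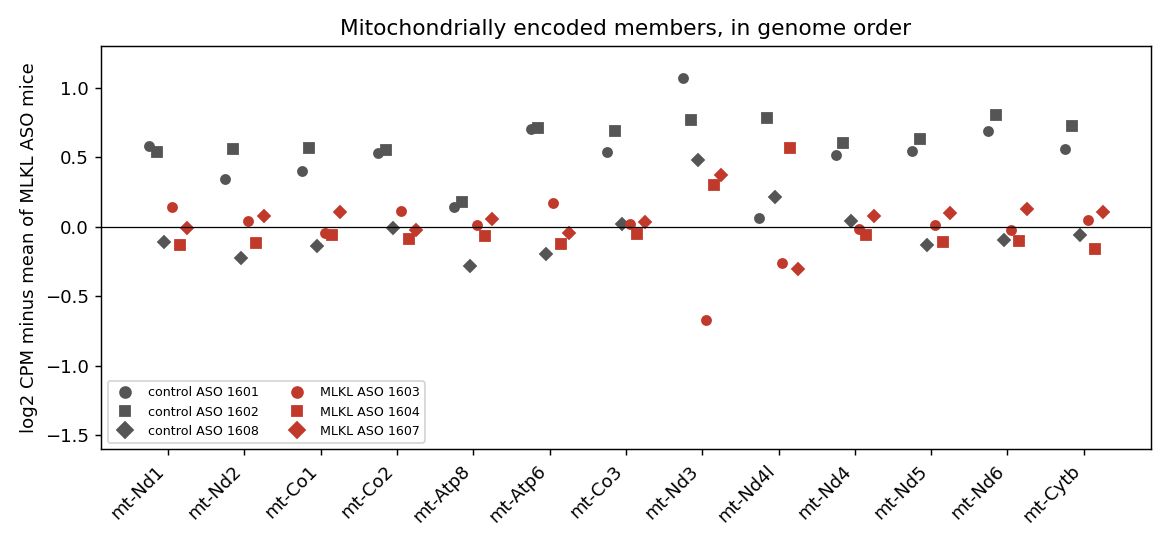
Level of each mitochondrially encoded member in each mouse, as log2 CPM minus the mean of the 3 MLKL ASO mice, with genes in the order of the mitochondrial genome. Control mice 1601 and 1602 lie above the line in nearly every gene, and control mouse 1608 lies above all MLKL ASO mice in 1 of 13.

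Complex I holds 7 of the mitochondrially encoded subunits, all of them in its membrane arm that pumps protons. The subunit mt-Nd4 measured 1384, 1465 and 995 CPM in control mice 1601, 1602 and 1608, and 954, 928 and 1022 CPM in MLKL ASO mice 1603, 1604 and 1607. Mouse 1608 stood between the MLKL ASO mice, and the log2 fold change was -0.40 (standard error 0.16, edgeR adjusted p = 0.392). A copy of mt-Nd4 in the annotation, Gm28439, matches it at 876 of 876 aligned bases but has no row in the count table. Reads assigned to that copy, if any, are therefore not in these levels. The subunit mt-Nd1, which lies beside the quinone site, measured 1428, 1383 and 884.5 CPM in control and 1051, 871.5 and 945 CPM in MLKL ASO mice, a log2 fold change of -0.37. Again mice 1601 and 1602 were high and mouse 1608 was not. The antiporter-like subunit mt-Nd2 had 464, 539 and 313 CPM in control and 377, 337 and 386 CPM in MLKL ASO mice, and mt-Nd5, another of that kind, had 746, 793 and 468 CPM and 515, 475 and 548 CPM. Mouse 1608 held the lowest level of all 6 mice for both.

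The gene mt-Nd6 is the only member on the opposite strand of the mitochondrial genome, and its level too was highest in mice 1601 and 1602. It measured 241, 262 and 140.0 CPM in control and 147, 139 and 164 CPM in MLKL ASO mice, a log2 fold change of -0.51 (standard error 0.23, edgeR adjusted p = 0.431). The sources used here do not say whether the authors' counting used strand. The gene mt-Nd3 had the lowest level of the 13, at 13.45, 10.9 and 8.94 CPM in control and 4.03, 7.87 and 8.28 CPM in MLKL ASO mice, and it was the only 1 of them whose groups did not overlap. Its log2 fold change was -0.72 (standard error 0.31, edgeR adjusted p = 0.417), but that value rests on how reads were divided. The copy Gm28438 took 52.3% of the pair's counts in mouse 1603, 12.2% in mouse 1607, 2.88% in mouse 1602 and none in the other three mice. For gene and copy together the levels were 13.45, 11.25 and 8.94 CPM in control and 8.46, 7.87 and 9.43 CPM in MLKL ASO mice, which overlap, and the log2 fold change was -0.39.

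The small subunit gene mt-Nd4l showed the opposite effect of adding its copy. As deposited it measured 28.7, 47.1 and 31.8 CPM in control and 22.9, 40.7 and 22.2 CPM in MLKL ASO mice, with wide spread in both groups. The copy Gm10222 held 67.7% to 81.0% of the pair's counts in controls and 63.7% to 79.4% in MLKL ASO mice. Gene and copy together measured 151, 146 and 116 CPM in control and 109, 112 and 108 CPM in MLKL ASO mice, without overlap. The log2 fold change was -0.33 (standard error 0.29) as deposited, where it ranged from -0.67 without mouse 1604 to -0.08 without mouse 1602, and -0.32 (standard error 0.13) for the sum (edgeR adjusted p = 0.399).

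Complex III has a single mitochondrially encoded subunit, cytochrome b, and mt-Cytb held the most counts of any member. It took 31.4%, 32.7% and 31.55% of the mitochondrially encoded counts in control mice and 30.7%, 29.8% and 32.0% in MLKL ASO mice. The levels of 7839, 8771 and 5094 CPM in mice 1601, 1602 and 1608 and of 5502, 4768 and 5739 CPM in mice 1603, 1604 and 1607 gave a log2 fold change of -0.44 (standard error 0.20, edgeR adjusted p = 0.450). In the GENCODE M21 transcripts no copy of mt-Cytb reached 95% identity over 200 bases, and mouse 1608 lay among the MLKL ASO mice for this gene as well.

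The mitochondrially encoded subunits of complex IV form its catalytic core. The gene mt-Co1, for the subunit that binds oxygen, measured 3851, 4309 and 2651 CPM in control and 2825, 2794 and 3129 CPM in MLKL ASO mice, a log2 fold change of -0.31. The gene mt-Co2, for the subunit that accepts electrons from cytochrome c, measured 1770, 1793 and 1215 CPM and 1327, 1149.6 and 1205 CPM, a log2 fold change of -0.38. Both had mice 1601 and 1602 above all others. The gene mt-Co3, for a structural subunit, had 1906, 2119 and 1332 CPM in control and 1329, 1266 and 1346 CPM in MLKL ASO mice, a log2 fold change of -0.44 (standard error 0.17, edgeR adjusted p = 0.392). With the copy Gm28437 added, its levels no longer overlapped, at 1595 CPM in mouse 1608 against 1463 to 1567 CPM in MLKL ASO mice (edgeR adjusted p = 0.369).

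The mitochondrially encoded subunits of complex V share a messenger but gave different values. The gene mt-Atp6, for the subunit through which protons pass, measured 4482, 4518 and 2413 CPM in control and 3110, 2531 and 2673 CPM in MLKL ASO mice, a log2 fold change of -0.46 (standard error 0.24). The gene mt-Atp8, on the same messenger, measured 805, 822 and 598 CPM in control and 735, 695 and 754 CPM in MLKL ASO mice, a log2 fold change of -0.03 (standard error 0.14). No member encoded in mitochondria lay closer to 0 than mt-Atp8. The copy Gm10925 took 33.2%, 35.4% and 43.8% of the counts of mt-Atp6 and Gm10925 in control mice and 39.7%, 45.7% and 47.5% in MLKL ASO mice. For their sum the log2 fold change was -0.27 (standard error 0.19), closer to that of mt-Atp8 than the value as deposited. Whether mt-Atp6 and mt-Atp8 differ in response was not tested.

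**Figure D3:**
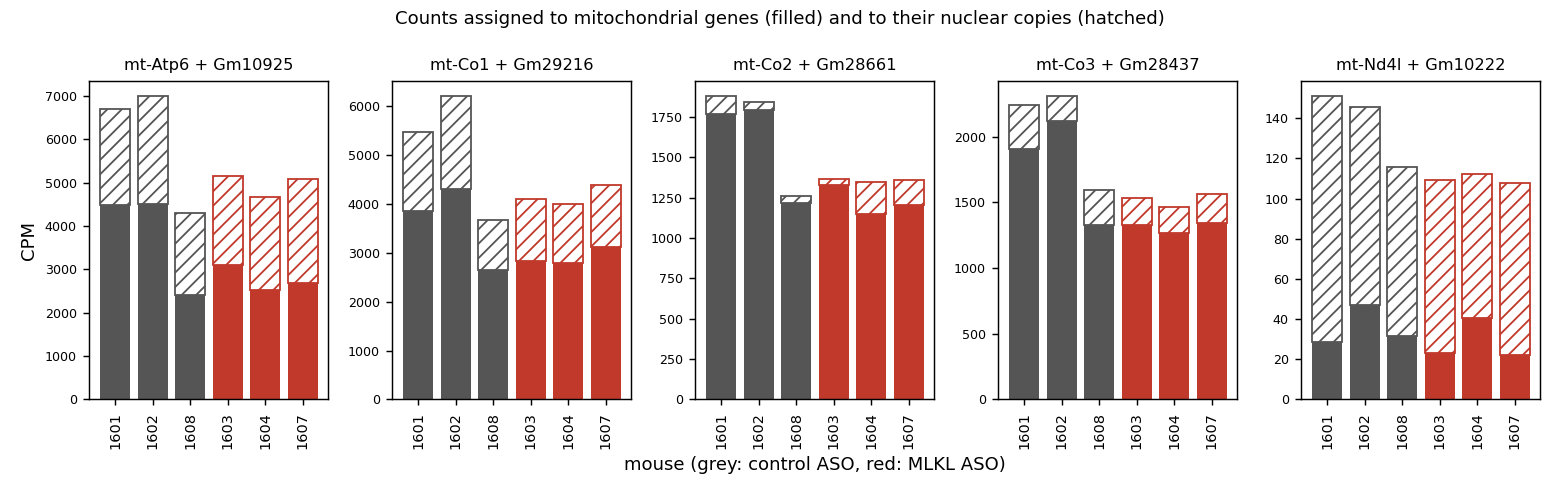
CPM assigned to mitochondrial genes (filled) and to their nuclear copies (hatched) in each mouse, with control ASO mice in grey and MLKL ASO mice in red. The copy Gm10925 holds 33.2% to 47.5% of its pair, and for mt-Nd4l the summed bars of the groups do not overlap although the filled parts do.

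Levels between genes were compared per kilobase of transcript, on which the mitochondrially encoded members had a median of 1143 CPM per kb (mean over 6 mice), against 172 CPM per kb for the 81 nuclear members with a length in the annotation. The range among mitochondrially encoded members was from 25.6 CPM per kb for mt-Nd3 to 5494 CPM per kb for mt-Cytb as deposited, but with copies added mt-Atp6 stood at 8051 CPM per kb, above mt-Cytb, and mt-Nd4l went from 108.5 to 416 CPM per kb. Nuclear members ranged from 1.17 (Cox4i2) to 724 CPM per kb (Cox6a1). The scale does not correct for short transcripts such as mt-Nd3, which can yield fewer fragments than their length implies. Lengths are those of the longest coding transcript of each gene, for example 2142 bases for Ndufb8. Where shorter forms carry the reads, nuclear values per kilobase come out too low. The pseudogene Ndufb4c is among the 81 nuclear members. For mt-Atp8, at 3602 CPM per kb, the length is that of a reading frame on a shared messenger. Ribosomal RNAs of the mitochondrial genome lie outside the members. The large one, mt-Rnr2, measured 2832, 3657 and 2198 CPM in control and 2873, 2455 and 2798 CPM in MLKL ASO mice, a log2 fold change of -0.10, and the small one, mt-Rnr1, had -0.39. Counts on messengers for each count on ribosomal RNA were 7.47, 6.07 and 6.29 in control and 5.36, 5.63 and 5.60 in MLKL ASO mice, without overlap. This ratio was not among the planned comparisons and was not tested. Libraries were made with a messenger RNA kit, so that ribosomal RNA was captured only in part.

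Nuclear subunits were close to even between the groups. Without the pseudogenes, 60 of 83 had a log2 fold change above 0, the median was 0.06, and 81 lay within 0.5 of 0. Beyond that were Cox6b2 and Cox8b, the latter with a sign that 1 mouse decides, or 2.41% of the 83, where 28.1% of all genes tested lay beyond it. Members are abundant and the comparison with all genes is not matched for level. The median of all 88 nuclear members was 0.06 and was -0.01 without control mouse 1608 or with limma-voom and sample weights, so that its sign depends on these choices.

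**Figure D4:**
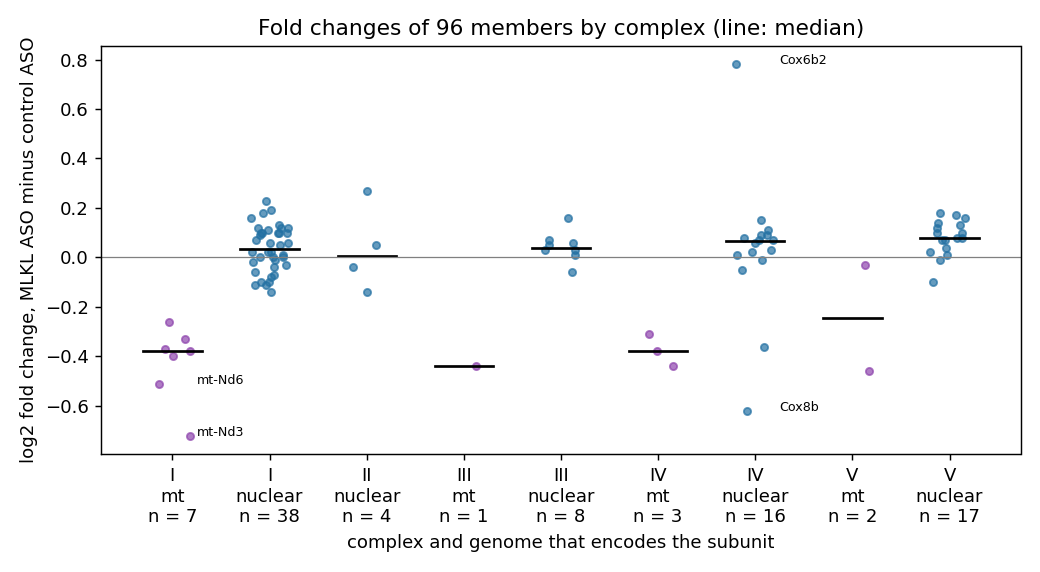
Log2 fold change (MLKL ASO minus control ASO) of 96 members by complex, assigned from the gene name, and by the genome that encodes them, with a line at each median. Mitochondrially encoded subunits have medians of -0.38 (complex I), -0.44 (III), -0.38 (IV) and -0.24 (V), and nuclear subunits medians from 0.01 to 0.08.

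Complex I had 38 nuclear subunits by gene name, with a median of 0.04. Ndufa4, which is found in complex IV, and its relative Ndufa4l2 are counted among them. Among the 7 core subunits of the peripheral arm, which carry the flavin and the iron-sulphur clusters, 3 lay above and 4 below 0. Ndufv1, which binds NADH, measured 147, 161.5 and 141 CPM in control and 169, 136 and 144.5 CPM in MLKL ASO mice, and Ndufs1, the largest iron-sulphur subunit, 99.2, 105 and 95.9 CPM and 119, 108 and 94.6 CPM. The groups overlapped for both. Ndufs8, which holds a pair of iron-sulphur clusters, had a log2 fold change of -0.14 (standard error 0.13). Of 31 accessory subunits by gene name 21 lay above 0. Ndufb9 (log2 fold change 0.23, standard error 0.12) and Ndufc2 (0.19, standard error 0.10) had groups that did not overlap, and Ndufb8 was at -0.02. Ndufb9 measured 152, 154 and 129 CPM in control and 185, 163 and 163 CPM in MLKL ASO mice. Reads of Ndufb4 are uncertain over the 390 bases in which it is identical to Ndufb4c, an annotated processed pseudogene that held 65.2% of the counts of the pair. Both rows had a log2 fold change of 0.02.

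Complex II has no mitochondrially encoded subunit, and its members pointed in different directions. Sdhd, a membrane anchor, had the smallest p of all 101 members. It measured 133, 127 and 133 CPM in control and 162, 154 and 157 CPM in MLKL ASO mice, so that each MLKL ASO mouse lay above each control mouse. The log2 fold change was 0.27 (standard error 0.10, edgeR adjusted p = 0.368). Sdha, the flavoprotein that oxidises succinate, measured 353, 389.5 and 405 CPM in control and 360, 331 and 350 CPM in MLKL ASO mice, a log2 fold change of -0.14 with overlap at mouse 1603. Sdhb, the iron-sulphur subunit, had -0.04 and Sdhc, the other anchor, 0.05.

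In complex III, 7 of 8 nuclear subunits lay above 0, with a median of 0.04 and a range from -0.06 to 0.16. Uqcrb, a small subunit near the quinone site, was the 1 whose groups did not overlap, at 178 to 198 CPM in controls and 199 to 223 CPM with the MLKL ASO. Uqcrc1, a core protein of the matrix side, measured 555.5, 612 and 473 CPM in control and 620, 494 and 559 CPM in MLKL ASO mice. Uqcrfs1, the Rieske iron-sulphur protein, had a log2 fold change of -0.06 (standard error 0.11). Complex V had 15 of 17 subunits above 0 and a median of 0.08. Its catalytic β subunit Atp5b was the most abundant nuclear member by CPM, with 663, 639 and 652 CPM in control and 714, 692 and 642 CPM in MLKL ASO mice. The α subunit Atp5a1 had a log2 fold change of 0.04, the γ subunit Atp5c1 of 0.02 and the stalk subunit Atp5o of 0.13, each with overlapping groups. Part of the reads of Atp5l, another subunit of the membrane part, is uncertain, since the processed pseudogene Gm10221 matches it at 309 of 309 bases and held 11.9% of the pair's counts.

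Several nuclear subunits of complex IV have forms particular to tissues. The widespread forms Cox4i1, Cox6a1, Cox6b1, Cox7a2 and Cox8a had log2 fold changes between 0.01 and 0.11. Cox4i1 measured 544, 566 and 532 CPM in control and 608, 522 and 529 CPM in MLKL ASO mice. Its groups overlapped. The forms known from heart and skeletal muscle were scarce, with Cox6a2 at 1.41 to 3.90 CPM, Cox7a1 at 2.19 to 5.01 CPM and Cox8b at 1.51 to 9.36 CPM over the 6 mice, and the 9 markers of striated muscle and brown fat together reached 1.81 to 2.87 CPM. Per kilobase, Cox8a stood at 399 CPM per kb and Cox8b at 11.4. Cox8b was highest in control mouse 1608 (9.36 CPM) and had a log2 fold change of -0.62 (standard error 0.68), which was 0.21 without that mouse and -1.38 without MLKL ASO mouse 1607. Cox4i2, the form tied to low oxygen, measured 0.389 to 1.14 CPM, and Ndufa4l2, a relative of Ndufa4 that is also induced by low oxygen, 1.38 to 5.31 CPM. For both, control mouse 1608 held the lowest value and the log2 fold changes (0.07 and 0.01) were within their standard errors. Ndufa4 itself, grouped here by its name with complex I but found in complex IV, had 0.12. Cox6b2, known mainly from testis, had 6.88, 6.51 and 3.25 CPM in control and 11.05, 10.04 and 7.44 CPM in MLKL ASO mice. Its groups did not overlap and its log2 fold change was 0.78 (standard error 0.32, edgeR adjusted p = 0.406).

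Promoter sequences (250 bases before to 50 after the start site, RefSeq on GRCm38.p6) were found for 68 of the 83 nuclear subunit genes. The site of NRF1, a factor known to drive genes of this group, searched as its exact palindrome, stood in 5 of 68 (7.4%) on either strand, among them Uqcrc1 and Cox6a1, and in 2.0% of 12916 genes with 10 or more counts in at least 3 libraries. The core of YY1 sites, AANATGGCG, stood in 10 of 68 (14.7%) against 4.9%, Atp5b among them, and the ETS core CCGGAAG, which GABP binds, in 17 of 68 (25%) against 17.3%, Sdhd and Sdhb among them. No motif holds another, both strands were searched for each, and exact matching misses variants.

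Other lists of mitochondrial genes also had 0 members past the threshold in edgeR over all genes tested. Of 15 measured complex I assembly factors 7 lay above 0 (median -0.05). Ndufaf4 and Nubpl, the latter an iron-sulphur carrier for complex I, had log2 fold changes of 0.27 and 0.40, an unadjusted p under 0.05 and groups that did not overlap. These were 2 of the 15, where 4.86% of all genes were higher at that p and 8.73% were higher without overlap. Of 32 assembly factors for complexes II to V 18 lay above 0, with a median of 0.04 and 0 at an unadjusted p under 0.05. Their smallest p belonged to Lyrm7 (0.47), Sdhaf1 (-0.38), Coa7 (-0.27) and Cox11 (-0.48). Large subunit proteins of the mitochondrial ribosome had 39 of 49 above 0 and a median of 0.11. Groups did not overlap for 7 of these 49, all higher, against 8.73% of all genes, and Mrpl50 measured 50.2, 50.5 and 48.9 CPM in control and 59.6, 59.6 and 59.3 CPM in MLKL ASO mice.

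Genes that copy and transcribe mitochondrial DNA had 8 of 18 above 0 and a median of -0.01. Polrmt, the mitochondrial RNA polymerase, measured 12.4, 8.01 and 18.2 CPM in control and 9.77, 7.52 and 10.2 CPM in MLKL ASO mice. Its groups overlapped, and its level was highest in control mouse 1608. Polg, the DNA polymerase, and Mgme1, a nuclease of mitochondrial DNA replication, had log2 fold changes of -0.23 and -0.35, and Mterf3 one of 0.17. Genes of mitochondrial RNA processing and decay had 15 of 19 above 0 and a median of 0.08. Fastk, of which a mitochondrial form acts on mt-Nd6 RNA, measured 33.1, 25.5 and 33.05 CPM in control and 23.7, 23.5 and 18.2 CPM in MLKL ASO mice, a log2 fold change of -0.49 (standard error 0.17, edgeR adjusted p = 0.366). Grsf1, Pnpt1 and Ptcd3 had values of 0.37, 0.19 and 0.16.

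Among 18 regulators of mitochondrial biogenesis 13 lay below 0 (median -0.13), as did 10268 of the 19741 genes tested. Of the 18, 4 were lower at an unadjusted p under 0.05, against 7.13% of all genes. The coactivator Ppargc1b measured 4.29, 2.02 and 2.32 CPM in control and 0.437, 1.12 and 1.24 CPM in MLKL ASO mice, a log2 fold change of -1.62 (standard error 0.48, edgeR adjusted p = 0.339). The nuclear receptor Esrra, which it assists, measured 4.17, 4.25 and 3.32 CPM and 2.33, 2.46 and 2.83 CPM, also without overlap. Myc had a log2 fold change of -0.37 and Gabpb1, a subunit of GABP, 0.16. Among electron carriers and enzymes of coenzyme Q synthesis, 13 of 21 lay above 0, with a median of 0.06. Coq8a, an atypical kinase required for coenzyme Q synthesis, measured 164, 150 and 205 CPM in control and 83.2, 76.8 and 66.1 CPM in MLKL ASO mice. Each MLKL ASO mouse lay below each control mouse, and the log2 fold change was -1.20 (standard error 0.16, edgeR adjusted p = 0.105, DESeq2 adjusted p = 1.89e-07, limma-voom adjusted p = 0.0461). Its relative Coq8b had -0.49, Coq7 0.32 and Pdss1 0.38.

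The tricarboxylic acid cycle had 12 of 17 genes above 0 and a median of 0.03, with Idh3a at 0.27, Dld at 0.17 and Ogdh at -0.24. Glycolysis had 12 of 17 below 0 and a median of -0.09. The glucose transporter Slc2a1 measured 39.1, 36.7 and 28.4 CPM in control and 21.97, 23.8 and 27.96 CPM in MLKL ASO mice, and Aldoa, Pfkl and Pfkfb3 had log2 fold changes of -0.25, -0.26 and -0.42. Groups did not overlap for 7 glycolytic genes that were lower and 1 that was higher, where 1975 of the 19741 genes tested were lower in this way and 8.73% higher. Of 20 genes of the mitochondrial stress response 14 lay above 0, with a median of 0.09, and 4 were higher at an unadjusted p under 0.05, against 4.86% of all genes. Asns, which makes asparagine and is a target of ATF4, measured 80.5, 61.5 and 58.1 CPM in control and 122, 159.8 and 98.75 CPM in MLKL ASO mice, a log2 fold change of 0.93 (edgeR adjusted p = 0.274, DESeq2 adjusted p = 0.0106). Trib3 (1.51), Mthfd2 (0.94) and Atf5 (0.67) lay in the same direction, and Trib3 was highest in mouse 1604, at 12.9 CPM.

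Markers of other cells also differed between mice. The 6 plasma cell markers summed to 3075, 2307 and 1436 CPM in control mice 1601, 1602 and 1608 and to 1502, 1267 and 1286 CPM in mice 1603, 1604 and 1607, so that mouse 1608 lay within the MLKL ASO range here too. The 9 T and NK cell markers summed to 207 to 533 CPM (control) and 134 to 192 CPM (MLKL ASO), without overlap, and the 8 B cell markers to 1038 to 2268 CPM and 726 to 1187 CPM. The 20 proliferation genes were all above 0 (median log2 fold change 0.81), among them Mki67 (1.09), Tpx2 (0.96), Cenpf (1.02) and Ccne2 (1.12), and summed to 991 to 1895 CPM and 1732 to 2415 CPM. Erythroid markers summed to 678 to 1609 CPM and 1067 to 2428 CPM, megakaryocyte and platelet markers to 100.3 to 1594 CPM and 1358 to 2848 CPM, and neutrophil markers to 237 to 1789 CPM and 718 to 1980 CPM. Macrophage markers summed to 818 to 1657 CPM and 994 to 1292 CPM, and fibroblast and mural markers to 45.6 to 165 CPM and 101 to 128 CPM. In control mice 1601, 1602 and 1608 the erythroid sums were 1609, 678 and 702 CPM and the macrophage sums 1657, 818 and 968 CPM. For these lists mouse 1602 lay below mouse 1608, unlike for the mitochondrial messengers. Control mouse 1608 held the lowest sum of all mice for megakaryocyte and platelet, neutrophil, fibroblast and mural markers and for proliferation genes. Its endothelial sum, 4415 CPM, was the highest. For B cell markers (1038 CPM), as for plasma cell markers, it lay within the MLKL ASO range. None of the defining markers in these lists was at 0 in all mice. Their part in the levels of mitochondrial messengers was not tested. With globin and immunoglobulin genes left out of the total, the share of mitochondrially encoded counts was 2.76%, 2.95% and 1.77% in control and 2.05%, 1.85% and 2.03% in MLKL ASO mice, with mouse 1608 then the lowest of all.

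**Figure D5:**
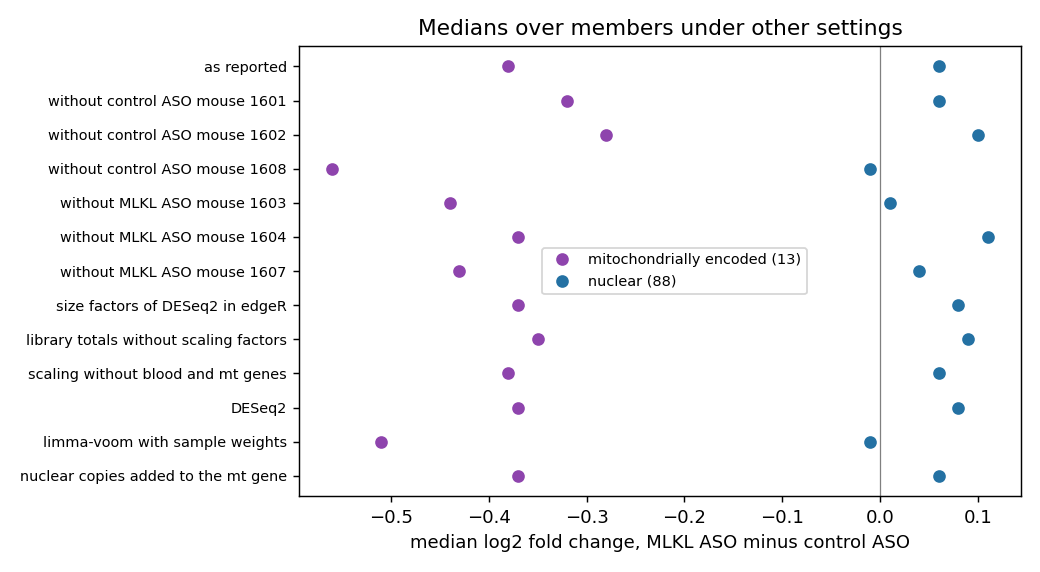
Median log2 fold change of the mitochondrially encoded (13) and nuclear (88) members as reported, with each mouse left out and under other settings. The mitochondrially encoded median lies between -0.56 and -0.28 in the settings drawn, and the nuclear median between -0.01 and 0.11.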

How the data were processed

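Bulk RNA sequencing of 6 libraries was analysed. Per the submitters' processing notes, the authors used fastp 0.20.1 (read trimming), Salmon 1.3.0 (which divides reads between similar transcripts) and DESeq2, and per the labels' protocols a directional messenger RNA kit. Since the sources used here name neither the build nor the annotation, no genome coordinates are printed. The authors deposited estimated counts for 23207 symbols, of which 4 are bare numbers and were left out of totals and tests. They also deposited a table with, per the file headers, a mean normalised count (a signal over libraries), a log2 fold change, a Wald score and p-values.

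Estimated counts were rounded, filtered by the default expression filter of edgeR 4.0.16 (19741 genes, all 101 members among them), scaled by TMM and tested with the quasi-likelihood test in R 4.3.3, two-sided, with Benjamini-Hochberg adjustment over all genes. Standard errors given with edgeR values are the absolute log2 fold change divided by the square root of the F statistic of that test. The 3 mice per group are separate animals and the labels name no batch. CPM are given as mean ± SD or per mouse. Members and gene lists were chosen with earlier results of these data known. The genes named are Mlkl, all mitochondrially encoded members, nuclear members that are the 10 most abundant, the 4 per direction with the largest change and with the smallest p at 1 CPM or more, core subunits and tissue forms, and up to 4 genes per pathway list by p. Some of these are not reported here. Genes outside it (Uqcrb, Sdhc, Ndufb4, Atp5l and copies) were chosen after their values were seen. The ribosomal RNAs mt-Rnr1 and mt-Rnr2 were also outside it. Copies were found with BLAST 2.17.0 in GENCODE M21 transcripts, which need not be the authors' annotation. Alternatives were other scalings and filters, DESeq2 1.42.0, limma 3.58.1 voom with sample weights and leaving out each mouse. Adding copies to their gene was chosen after seeing the data. The main edgeR fit, DESeq2 and limma-voom were checked on simulated data with known changes, and the other alternatives were not. There DESeq2 called more unchanged genes than edgeR or limma-voom. Each of these tools missed more of the smaller known changes than it found, and DESeq2 missed the fewest.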

Additional observations from a re-analysis of the deposited data

How the results depend on the processing

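Members past the threshold numbered 0 in every alternative run, while the count over all genes, 2 with edgeR as reported, was 9 with library totals without scaling factors, 515 with DESeq2 and 24 with limma-voom and sample weights, and 0 to 19 with 1 mouse left out. The median of mitochondrially encoded members stayed below 0 in all of these, from -0.56 to -0.28, and from -0.53 to -0.24 with copies added and 1 mouse left out. The difference of the log2 ratio to nuclear counts stayed between -0.58 and -0.31. Among 86 named genes, 12 of 1203 values under alternatives passed the threshold where edgeR as reported did not (Mlkl and Coq8a with DESeq2 and with limma-voom, Mlkl also with unscaled totals, and Asns, Trib3, Mthfd2, Tpx2, Cenpf, Ccne2 and Mki67 with DESeq2), and 45 changed sign in genes within 1 standard error of 0. No paired analysis was possible because the mouse numbers do not recur between the groups. With 3 mice per group, and 1 control mouse at the level of the other group, differences of the size seen in mitochondrially encoded members could not be separated from the spread between mice.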
